A study of Mus musculus with 6 samples.

Results

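Respiratory complex I is the entry point of the mitochondrial electron transport chain: it oxidizes NADH, passes the electrons along iron-sulfur clusters to ubiquinone and pumps protons across the inner membrane. It is L-shaped. A peripheral arm in the matrix carries the NADH and ubiquinone chemistry, and a membrane arm, with a proximal part next to the junction and a distal part at its tip, carries the proton pumps. The catalytic core is encoded partly in the nucleus and partly in mitochondrial DNA, and nuclear accessory subunits surround it. Oocytes store maternal RNA and mitochondria for the embryo, and oxidize pyruvate in mitochondria for much of their ATP.

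The nuclear subunit genes were taken as the rows whose symbol begins with Nduf, then a, b, c, s or v, then a number. This gave 40 of the 25239 genes in the table. They comprise 35 subunits placed by structure in the core or in 1 of the 3 accessory groups, the 2 genes Ndufa4 and Ndufa4l2, which carry the name but are not subunits of the assembled complex, and the copies Ndufb4c, Ndufs5-ps and Ndufa11b. RefSeq annotates 38 of the 40 as protein-coding. They lie on 15 chromosomes, with 2 (Ndufa1 and Ndufb11) on X. Ndufb1 and the 7 mitochondrially encoded subunits matched no row and were not analysed here.

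Polyadenylated RNA was measured by Smart-seq3, a full-length single-cell method, in 6 libraries of mouse oocytes that still had the germinal vesicle (GV), the intact nucleus held before meiosis resumes. The females were of the CD-1 strain and 4 to 6 weeks old, and their cumulus-oocyte complexes were injected with water (3 libraries) or with a phthalate metabolite mixture (3 libraries), which compares the mixture with its vehicle. Both groups were then held in a maturation medium containing FSH and serum, and oocytes were taken at the GV stage. The labels give neither the dose nor the composition of the mixture, nor the animal behind each library, and the protocol can be read as 1 oocyte per group. Each group was therefore treated as 1 sample: no difference was tested against the spread between animals. Values are given for each library, and intervals (95%, exact) cover counting error only.

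Library totals ran from 252267 to 300917 gene counts. All 10 oocyte markers examined, Gdf9 and Zp3 among them, were present in every library, at 2.44% of the water counts and 2.28% of the phthalate counts. Of 20 cumulus and granulosa markers, 11 were at 0, and the 19 other than Nr5a2 summed to 11 counts with water and 14 with phthalate. Nr5a2 itself had 8 to 32 counts per library. Of 8 blood, immune and stromal markers, 5 were at 0, and Pecam1 had 8 to 25 counts per library. The part of such cells in the results was not tested. The share of the ribosomal RNA precursor Rn45s was higher in each phthalate library (2.89% to 3.54%) than in any water library (2.02% to 2.35%). The log2 ratio of the complex I share, phthalate over water, was 0.014 with Rn45s taken out of the totals and -0.0014 with it in.

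Complex I transcripts took shares of the oocyte's counts that differed by less than counting error with water and with phthalate. The 40 genes held 1073, 1098 and 1036 counts in water libraries 1, 2 and 3, which is 0.398%, 0.365% and 0.365% of their totals. They held 916, 1046 and 1122 counts in the phthalate libraries, or 0.363%, 0.355% and 0.408%. The ranges overlapped, and the third phthalate library was the highest of the 6. Summed, the share was 0.375% in both groups, a log2 ratio of -0.0014 (interval -0.073 to 0.070). Low counts were more often even than odd, so both mates of a read pair seem to have been counted, and with counts halved to pairs the interval was -0.10 to 0.10. Against the ERCC spike-ins, synthetic RNAs whose added amount is not in the labels, the ratio was 0.13, but complex I counts per ERCC count ranged from 1.42 to 3.31 within the water group alone.

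Levels were compared between genes as CPM (counts scaled to a library total of 1000000) per kilobase of the longest transcript. Ndufa2, a small thioredoxin-like subunit of the peripheral arm, was at the top with 668, 378 and 444 CPM per kb in the water libraries and 402, 415 and 528 in the phthalate libraries. Ndufb11, an X-linked distal-arm subunit, followed at 368, 304 and 256 with water and 389, 276 and 308 with phthalate. Ndufa8, a cysteine-rich protein of the intermembrane space, came next at 289, 313 and 258 with water and 253, 264 and 317 with phthalate. Of 35 neighbouring pairs in the order by water mean, 33 overlapped in their water ranges, the exceptions being Ndufa2 over Ndufb11 and Ndufa9 over Ndufb6. The 5 members with most counts held 35.2% of all complex I counts, and the 7 core subunits 16.1%.

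The order depends on the choice of transcript. On median transcript length Ndufa11 was first, at 505 CPM per kb against 496 for Ndufa2, and in plain CPM Ndufa9 was first, at a mean of 318 with water against 284. The lower end also rests on few counts. Ndufs1, the large core subunit that carries several iron-sulfur clusters, had counts of 4, 0 and 10 with water and 0, 1 and 7 with phthalate. Its mean level was 6.27 CPM per kb in the water libraries. Ndufb2, a small distal-arm subunit, was at 7.83 CPM per kb on its longest transcript of 4371 bases but at 59.8 on its median transcript length of 572 bases. Ndufb7, a distal-arm subunit on the intermembrane side, moved the other way, from 242 to 59.5. From lowest to highest, the members with a mean count of at least 10 spanned 63.4-fold on the longest transcript, 9.50-fold on the median length and 9.31-fold in plain CPM.

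**Figure D1:**
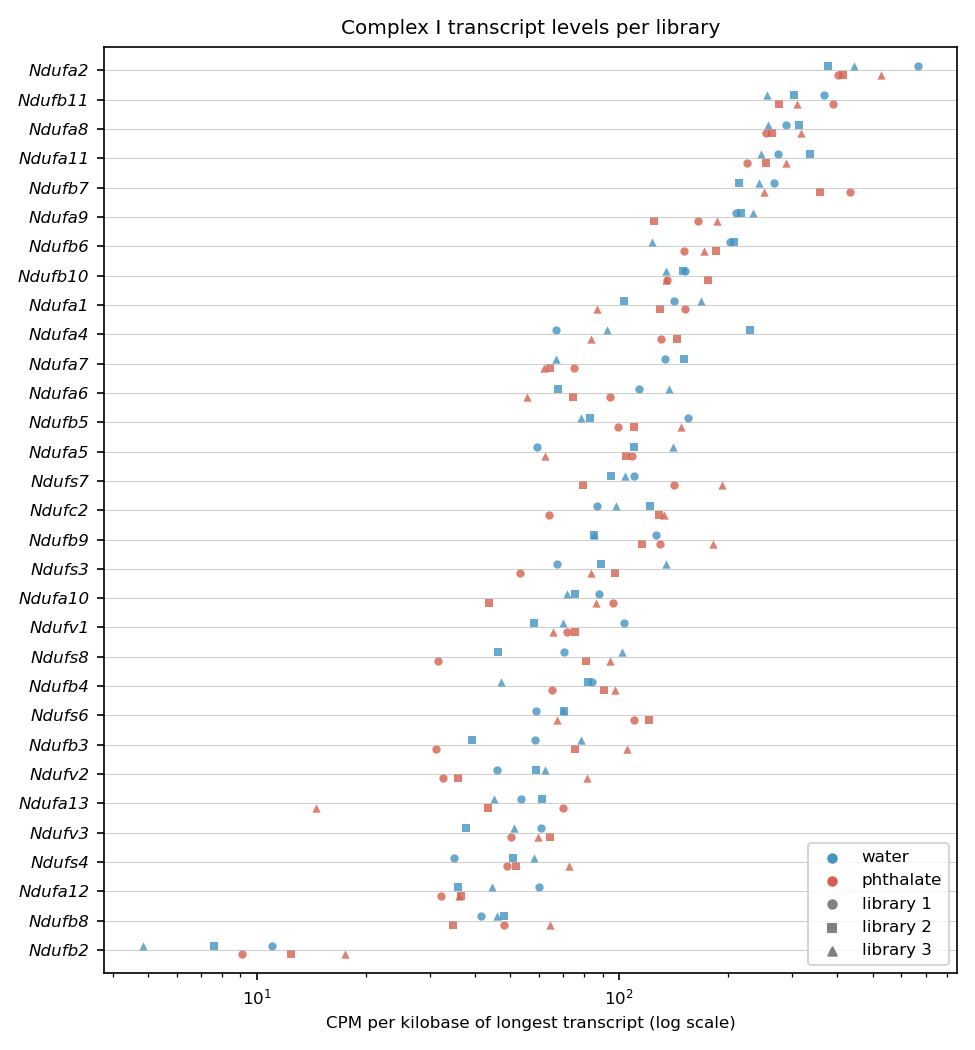
CPM per kilobase of longest transcript (log axis) for 31 members with a mean count of at least 10, ordered by water mean. Blue points are water libraries and red points phthalate libraries, with a marker shape for each library number. Most genes' blue and red points interleave, Ndufa9 is the member whose groups do not overlap, and the libraries of a group often spread as widely as the 2 groups.

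Some members were low or absent, and some share sequence with copies. Ndufs5, a cysteine-rich subunit of the proximal membrane arm (chr4:123712710-123718186, minus strand, GRCm38.p6), was listed at 0 in all 6 libraries, as were Ndufa4l2 and Ndufa11b. A count of 0 allows up to 3 counts, or from 9.97 to 11.9 CPM per library. The transcribed pseudogene Ndufs5-ps had counts of 0, 0 and 0 with water and 1, 0 and 2 with phthalate. Of the 50-base windows of Ndufs5 transcripts, 31.1% also occur in another gene, chiefly that pseudogene, with an identical run of 214 bases, so reads there could have matched both. Whether this bears on the count of 0 for Ndufs5 was not tested. Ndufb4c, whose whole 390-base transcript lies within a transcript of Ndufb4, had 0, 4 and 2 counts with water and none with phthalate. Over all members, 9 shared at least 20% of such windows with another gene and 17 shared none.

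Promoter sequence from RefSeq (GRCm38.p6, 250 bases before to 50 after the start, 300 in all) was held for 32 of the 40 members and was searched on both strands for 3 motifs linked in textbooks to nuclear genes of respiration. The YY1 core AAGATGGC occurred in 7 of 32 members (21.9%), against 3.19% of 27025 genes in the table. Among promoter-matched genes whose mean count was 10 or more, it occurred in 5 of 29 members (17.2%) and in 6.97% of 3686 genes. In those 7 it lay on the gene's own strand, with its first base 23 to 39 bases into the transcript. A span of positions 21 to 40, set after these places were seen, held the motif in 0.555% of all genes, in 2.14% of the 3686 (with the same 5 of 29 members) and in 1 (Atp5j2) of 31 subunit genes of complexes II to V. These shares describe the span and test nothing. In each of the 7, the ATG inside the motif is the annotated start codon, so the same letters also belong to the coding sequence. The NRF1 core GCGCATGCG occurred in 2 members (6.25%) against 1.95% of all genes, and the ETS core CCGGAAGT in 1 (3.13%, Ndufs3) against 4.31%. In the 31 genes of complexes II to V, the NRF1 core occurred in 6, the ETS core in 4 and the YY1 core, at any place and on either strand, in 3. A match describes letters only.

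The 7 YY1-core windows and an NRF1-core window for each of its 2 genes are printed below to show the letters that members of each set share and what surrounds them. Each is 30 bases, 5' to 3' on the gene's strand, with the motif, or its reverse complement, in capitals.
Ndufc1 (chr3:51408914-51408943, minus strand): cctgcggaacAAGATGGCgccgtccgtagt
Ndufa9 (chr6:126849096-126849125, minus strand): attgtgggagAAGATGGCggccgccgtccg
Ndufa3 (chr7:3617385-3617414, plus strand): cgccaagaacAAGATGGCcgggagtaagta
Ndufs7 (chr10:80249463-80249492, plus strand): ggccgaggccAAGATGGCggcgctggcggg
Ndufs6 (chr13:73328433-73328462, minus strand): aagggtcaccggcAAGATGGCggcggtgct
Ndufs4 (chr13:114388045-114388074, minus strand): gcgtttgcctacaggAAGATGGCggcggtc
Ndufb8 (chr19:44555393-44555422, minus strand): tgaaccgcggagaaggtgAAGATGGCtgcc
Ndufa8 (chr2:36049328-36049357, minus strand): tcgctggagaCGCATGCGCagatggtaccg
Ndufa11 (chr17:56717692-56717721, plus strand): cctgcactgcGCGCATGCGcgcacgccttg
The 7 genes with the YY1 core did not share a direction between the groups. Their log2 ratios of phthalate over water were -0.47 for Ndufa9, -0.22 for Ndufc1, 0.12 for Ndufb8, 0.28 for Ndufs4, 0.43 for Ndufs7, 0.60 for Ndufs6 and 1.31 for Ndufa3. Ndufc1 and Ndufa3 had mean counts of only 6.67 and 7.83. The 2 genes with the NRF1 core lay near 0, at -0.026 for Ndufa8 and -0.14 for Ndufa11, a proximal membrane subunit. The signs of Ndufc1, Ndufb8, Ndufa8 and Ndufa11 changed with single libraries, to 0.080 for Ndufc1 without water library 3 and to -0.18 for Ndufb8 without phthalate library 3. The ratio of Ndufs4 was 0.033 without phthalate library 3 and 0.095 without water library 1.

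Gene ratios were taken on counts summed over a group and scaled by TMM, for genes averaging 10 counts or more over all 6 libraries: 4511 genes in all and 32 of the 40 members. The 8 members left out are Ndufs1, Ndufc1, Ndufa3, Ndufb4c and Ndufs5-ps, with low counts, and the 3 at 0. Of the 32, 15 were higher and 17 lower with phthalate, so 46.9% lay above 0 against 51.3% of all 4511 genes, and the median log2 ratio was -0.025 against 0.0096. This near-even split moved with single libraries: 19 lay above 0 without water library 1 or 2, 18 without water library 3 or phthalate library 1, 16 without phthalate library 2 and 12 without phthalate library 3. The median then ran from -0.066, without phthalate library 3, to 0.079, and was above 0 in the other 5 cases. Against each gene's water median, 14, 15 and 19 of the 32 were higher in phthalate libraries 1, 2 and 3, where 51.2%, 52.4% and 42.4% of all 4511 genes were. Past 1.5-fold with phthalate higher were 2 members, Ndufb2 and Ndufs6, or 6.25% against 6.76% of all genes. Past 1.5-fold with water higher was 1, Ndufa7, or 3.13% against 7.83%. On CPM no member had all phthalate libraries above all water libraries, against 4.43% of all genes, and 1, Ndufa9, had the reverse, against 5.59%. On TMM-scaled CPM 3 members did not overlap between groups (Ndufa9, Ndufb7 and Ndufs6), or 9.38% against 10.1% of all genes. The shares of members lay near those of all genes, and those past 1.5-fold or not overlapping rest on 3 members or fewer.

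**Figure D2:**
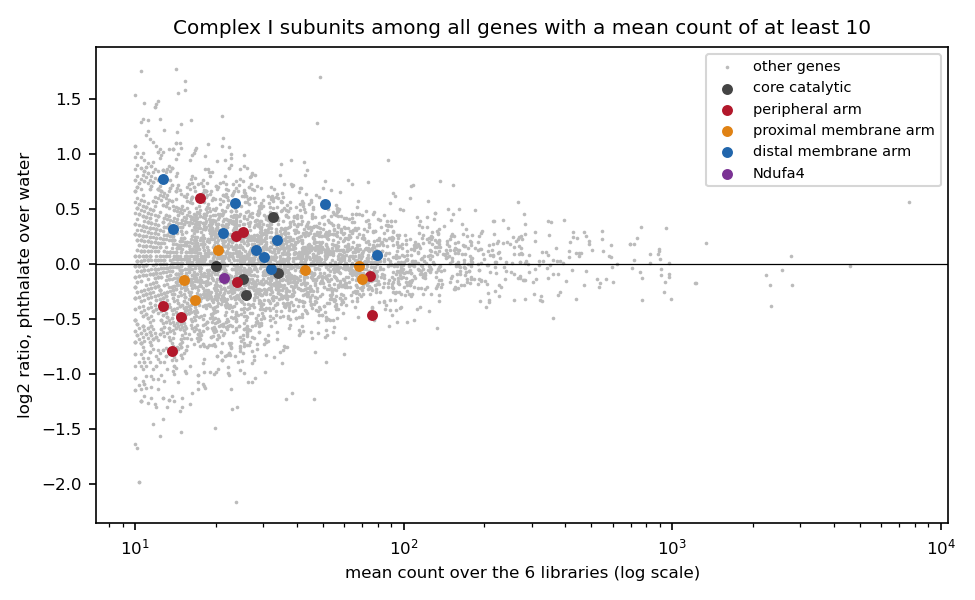
Log2 ratio of summed counts, phthalate over water, against mean count over the 6 libraries (log axis) for genes averaging 10 counts or more. Grey points are other genes and coloured points 31 members by structural group. The coloured points lie within the grey cloud at their count. At mean counts of 10 to 20 the 5th to 95th percentiles of all genes ran from -0.86 to 0.82, and at 40 to 100 from -0.42 to 0.47.

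The core catalytic subunits were divided in direction. Of the 6 measured, 2 were higher and 4 lower with phthalate, where 51.3% of all genes were higher. The median of -0.053 ran from -0.21, without phthalate library 3, to 0.12, without water library 3. Higher than their water median in phthalate libraries 1, 2 and 3 were 3, 3 and 4 of the 6, beside 51.2%, 52.4% and 42.4% of all genes. Their summed level was 616, 508 and 698 CPM with water and 515, 522 and 771 with phthalate. Ndufs7, which holds the last iron-sulfur cluster before ubiquinone, was at 108, 93.0 and 102 CPM with water and 139, 78.0 and 189 with phthalate. Its log2 ratio was 0.43 (0.0080 to 0.85, or -0.11 to 1.10 on read pairs), and the phthalate libraries lay on both sides of the water range. Without the third phthalate library it was 0.040, and without the second 0.75. Ndufv2, an iron-sulfur subunit of the NADH-oxidizing module, was at 77.9, 99.7 and 106 CPM with water and 55.5, 61.0 and 138 with phthalate. Here too the third phthalate library stood above all others, and the log2 ratio of -0.14 (-0.62 to 0.34) was -0.73 without it, 0.089 without phthalate library 1 and 0.097 without phthalate library 2.

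Other core subunits had intervals that included 0. Ndufv1, which binds FMN and oxidizes NADH, had a log2 ratio of -0.082 (-0.49 to 0.33), which was 0.16 without water library 1 and -0.25 without water library 2. Ndufs8, an iron-sulfur subunit of the ubiquinone module, was at -0.023 (-0.57 to 0.52), and at 0.31 without water library 3 or phthalate library 1 and -0.35 without phthalate library 3. Ndufs3, a core subunit of the same module, was at -0.28 (-0.76 to 0.19), and at 0.028 without water library 3 and -0.49 without water library 1. 39.7% of the 50-base windows of Ndufs3 occur in other genes, mostly in Gm12251. Ndufs1 was at -0.73 (-2.19 to 0.62) on 14 and 8 counts, and at 0.50 without the third water library. The signs of these ratios changed with single libraries.

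The peripheral arm held the member whose groups were apart on plain CPM. Ndufa9, a dehydrogenase-like subunit near the junction of the arms (chr6:126821863-126849144, minus strand), had 82, 94 and 96 counts with water and 60, 53 and 74 with phthalate. In CPM this is 304, 312 and 338 against 238, 180 and 269, so each phthalate library lay below each water library. The log2 ratio was -0.47 (-0.74 to -0.19, or -0.87 to -0.084 on read pairs), and it ran from -0.66, without phthalate library 3, to -0.28, without phthalate library 2. RefSeq places 1700018A23Rik in the same stretch, a gene that the table does not list. At this mean count, 76.5, the ratio lay outside the central range of all genes given above.

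Ndufa7, a small subunit near the ubiquinone module, was at 70.5, 79.8 and 35.2 CPM with water and 39.6, 33.9 and 32.7 with phthalate. The phthalate libraries were close together, and the third water library fell between them. The log2 ratio was -0.80 (-1.50 to -0.12) on 53 and 29 counts. Ndufa6, which binds the acyl carrier protein, was at 66.8, 39.9 and 81.0 CPM with water and 55.5, 44.1 and 32.7 with phthalate. These overlapped, with a log2 ratio of -0.48 (-1.14 to 0.15) that was -0.24 without water library 3 and -0.73 without water library 2. Ndufs6, a zinc-binding subunit, was at 44.5, 53.2 and 52.9 CPM with water and 83.2, 91.5 and 50.9 with phthalate. The third phthalate library lay inside the water range, and the log2 ratio was 0.60 (0.017 to 1.20). Counted as read pairs, the intervals of Ndufa7 (-1.92 to 0.11) and Ndufs6 (-0.27 to 1.43) included 0.

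Of the 9 peripheral accessory subunits, all measured, 3 were higher and 6 lower with phthalate, where 51.3% of all genes were higher, with a median of -0.17. Higher than their water median in phthalate libraries 1, 2 and 3 were 1, 3 and 3 of the 9, beside 51.2%, 52.4% and 42.4% of all genes. Their summed level was 1143, 984 and 1114 CPM with water and 939, 908 and 1000 with phthalate, so the groups overlapped. The log2 ratio of their summed shares was -0.18 (-0.32 to -0.044, or -0.38 to 0.015 on read pairs). Leaving out phthalate library 3 put the median at -0.30, the lowest value among single libraries left out, it was -0.27 without water library 2 or phthalate library 1 and -0.26 without phthalate library 2, and leaving out water library 3 put it at -0.18, the highest.

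The proximal membrane subunits differed between the groups by less than counting error. Of 9 listed, 6 were measured, with 1 (Ndufc2, 0.12, and -0.089 without phthalate library 3) higher and 5 lower, and a median of -0.10. The median was -0.031 without water library 2 and -0.056 without phthalate library 2. Their log2 share ratio was -0.064 (-0.21 to 0.085), with 917, 954 and 842 CPM with water and 844, 827 and 928 with phthalate. Ndufa13 had the lowest ratio of the 6, at -0.33 (-0.94 to 0.26), with counts of 18, 23 and 16 with water and 22, 16 and 5 with phthalate. Against the water median, 3, 1 and 4 of the 6 were higher in phthalate libraries 1, 2 and 3, beside 51.2%, 52.4% and 42.4% of all genes. The low value of Ndufa13 was that of the third phthalate library, without which its ratio was 0.023. It was -0.82 without phthalate library 1, and the gene overlaps Tssk6 on the other strand.

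The distal membrane arm was higher in sum with phthalate. Of 10 subunits, all measured, 9 were higher in sum with phthalate, where 51.3% of all genes were, with a median of 0.25. The other, Ndufb6, was at -0.047, with -0.25 without water library 3 and 0.099 without water library 2. The 22 measured members outside the distal arm had 6 higher and 16 lower, with a median of -0.12. The summed level of the 10 was 1265, 1050 and 934 CPM with water and 1249, 1200 and 1324 with phthalate, and the first water library lay within the phthalate range. The log2 ratio of summed shares was 0.22 (0.090 to 0.35, or 0.040 to 0.41 on read pairs), and 0.16 without Ndufb7. No distal subunit had CPM groups apart.

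The size of this difference moved with single libraries. Without phthalate library 3, 6 of the 10 distal subunits were above 0 and their median was 0.067. The number was 8 without water library 3 or phthalate library 2, 9 without phthalate library 1 and 10 without water library 1 or 2. The median was 0.099 without water library 3 and 0.14 without water library 2. The share ratio was 0.13 without water library 3 and 0.34 without water library 1. Against the water median of each gene, 6, 7 and 8 of the 10 were higher in phthalate libraries 1, 2 and 3, beside the shares of all genes given above. Of the 7 distal subunits that share under 20% of their windows with another gene, all 7 were above 0, with a median of 0.22. This filter leaves out Ndufb6, the only distal subunit below 0 with all libraries. It shares 34.1% of its windows, chiefly with Smim27 on the other strand.

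Within the distal arm, Ndufb7 was at 167, 133 and 152 CPM with water and 270, 224 and 156 with phthalate. Its first 2 phthalate libraries lay above all water libraries and the other inside their range. The log2 ratio was 0.54 (0.20 to 0.88, or 0.069 to 1.04 on read pairs). At its mean count of 50.8 this too lay outside the central range of all genes, -0.42 to 0.47. Ndufb9, which like Ndufa6 binds the acyl carrier protein, was at 89.1, 59.8 and 59.9 CPM with water and 91.2, 81.3 and 127 with phthalate. The first water library lay inside the phthalate range, and the log2 ratio was 0.55 (0.048 to 1.06, or -0.11 to 1.34 on read pairs). It was 0.28 without phthalate library 3. Ndufb2 was at 48.2, 33.2 and 21.1 CPM with water and 39.6, 54.2 and 76.4 with phthalate. Its groups overlapped, and its log2 ratio of 0.77 (0.072 to 1.49), the highest of the 32, rests on 29 and 47 counts. On read pairs its interval was -0.23 to 1.86. The ratio was 0.45 without phthalate library 3, where Ndufs6 stood at 0.77. Ndufb11 lay at 0.079 (-0.19 to 0.34) on 239 and 240 counts, and at -0.041 without phthalate library 1, -0.033 without water library 3 and 0.21 without phthalate library 2.

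**Figure D3:**
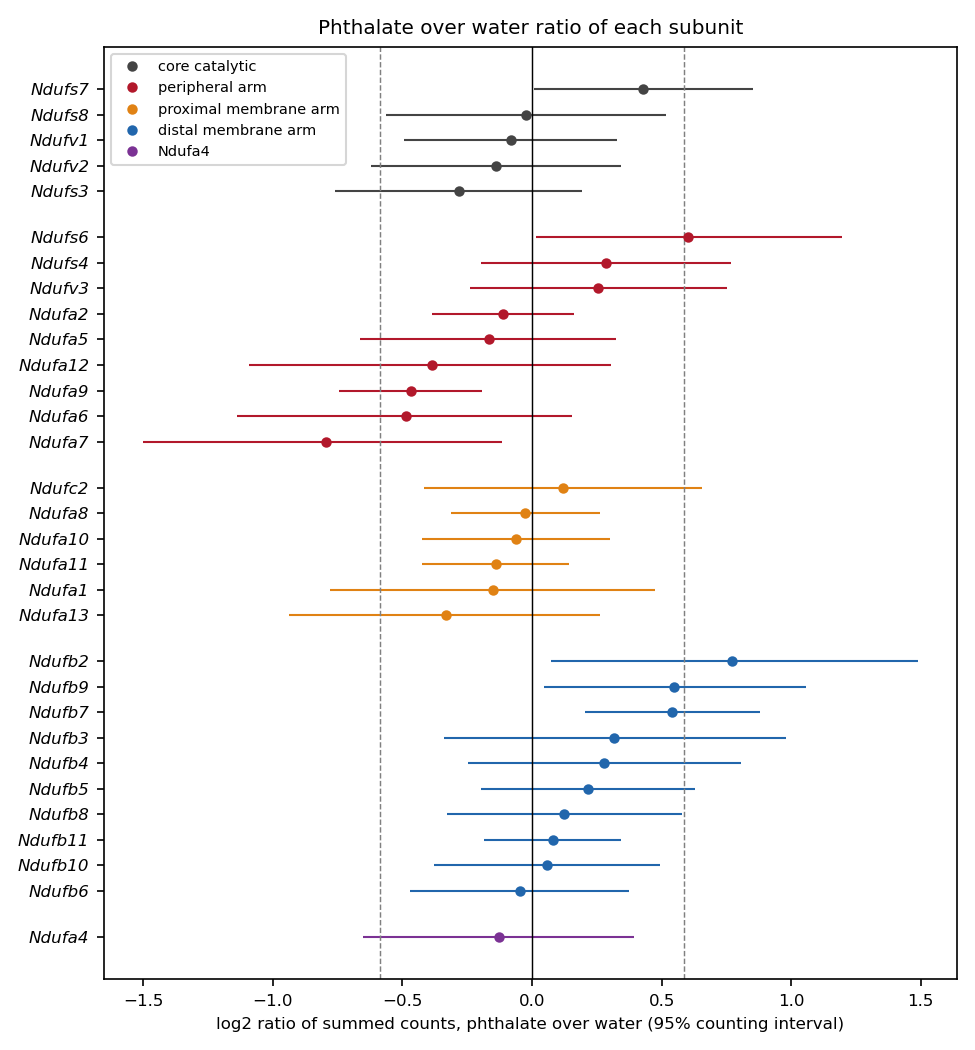
Log2 ratio of summed, TMM-scaled counts, phthalate over water, for 31 measured members grouped by structure. Points are ratios, bars are 95% intervals for counting error only, and dashed lines mark 1.5-fold. In the distal arm 9 of 10 points lie right of 0, and in the proximal arm 5 of 6 lie left of it.

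Seen as parts of the complex I total, the distal share of each library was 31.8%, 28.8% and 25.6% with water and 34.4%, 33.8% and 32.4% with phthalate. All 3 phthalate libraries lay above all 3 water libraries, with a gap from 31.8% to 32.4%. Among single genes on CPM, 4.43% of all genes were apart with phthalate higher and 5.59% with water higher. The peripheral accessory share was 28.7%, 27.0% and 30.5% with water and 25.9%, 25.6% and 24.5% with phthalate, again with no overlap but in the opposite direction. That sum includes Ndufa9, itself apart on CPM, which holds 7.30% of all complex I counts. The peripheral share without Ndufa9 is not given here, so the separation cannot be read as arm-wide. The proximal share, at 23.0%, 26.1% and 23.1% with water and 23.3%, 23.3% and 22.7% with phthalate, overlapped, as did the core share at 15.5%, 13.9% and 19.1% against 14.2%, 14.7% and 18.9%. These shares divide a common total, so a higher share of 1 group lowers the others. The ratios that follow are formed from the same counts and are not separate observations. The ratio of distal to peripheral counts was 1.11, 1.07 and 0.839 with water and 1.33, 1.32 and 1.32 with phthalate. The ratio of distal to proximal counts was 1.38, 1.10 and 1.11 with water and 1.48, 1.45 and 1.43 with phthalate. The ratio of distal to core counts overlapped, at 2.05, 2.07 and 1.34 with water and 2.42, 2.30 and 1.72 with phthalate.

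**Figure D4:**
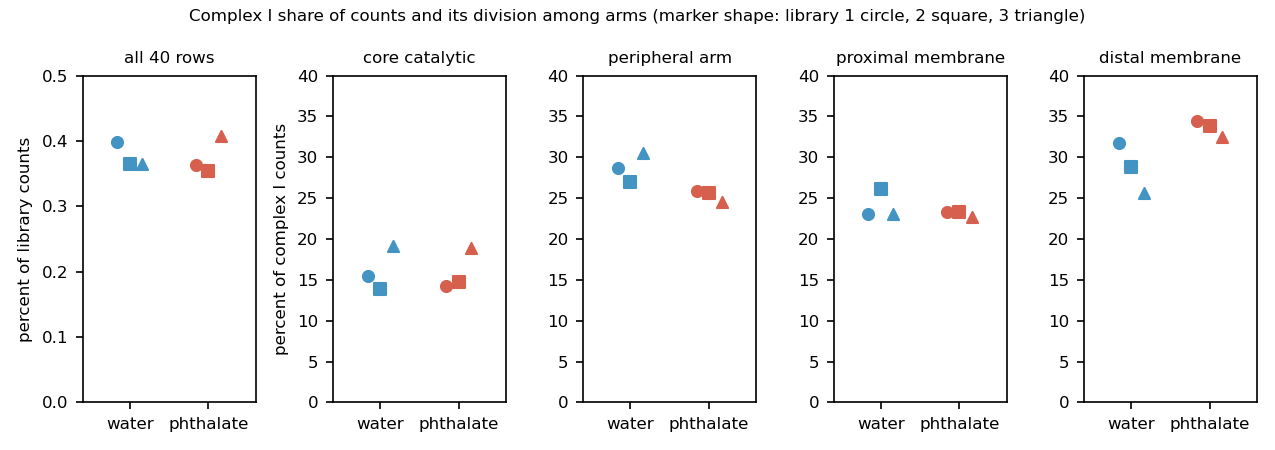
Left panel: counts of all 40 genes as a percent of library counts. Other panels: counts of each structural group as a percent of complex I counts; points are single libraries. The distal share lies from 25.6% to 31.8% with water and from 32.4% to 34.4% with phthalate, while the share of the whole complex overlaps between groups.

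Ndufa4, now assigned to complex IV, was at 40.8, 140 and 56.4 CPM with water and 79.3, 88.1 and 50.9 with phthalate. The second water library stood above the other 5, and the log2 ratio of -0.13 (-0.65 to 0.39) was 0.61 without it, -0.44 without water library 1 and 0.023 without phthalate library 3. Ndufab1, the mitochondrial acyl carrier protein, occurs in complex I but falls outside the naming rule. It had 68, 78 and 41 counts with water and 36, 67 and 39 with phthalate, a log2 ratio of -0.32 (-0.65 to -0.0016, or -0.76 to 0.16 on read pairs). Its groups overlapped, and the ratio ran from -0.58 without phthalate library 2 to -0.16 without water library 2.

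Assembly factors build the complex without remaining in it. Of 20 listed, 19 were in the table and 6 had a mean count of at least 10, with 3 higher, 3 lower and a median of 0.10. Ndufaf2, which joins a late assembly intermediate, was at 66.8, 66.5 and 35.2 CPM with water and 103, 94.9 and 72.7 with phthalate. Ndufaf4, which acts on the ubiquinone module, was at 271, 312 and 349 CPM with water and 206, 251 and 240 with phthalate. The groups did not overlap for either gene, as for 4.43% (phthalate higher) and 5.59% (water higher) of all genes, and the log2 ratios had opposite signs, 0.70 (0.15 to 1.25, or -0.082 to 1.503 on read pairs) for Ndufaf2 and -0.40 (-0.67 to -0.12, or -0.79 to -0.0077 on read pairs) for Ndufaf4. Without water library 3, Ndufaf2 was at 0.46. Ndufaf7, a methyltransferase, was at 0.33 (-0.34 to 1.01), but at -0.11 without phthalate library 2 and 0.67 without water library 3. Ndufaf8, a partner of Ndufaf5, was at -0.28 (-1.03 to 0.46), and at 0.046 without water library 1. Ndufaf1 was listed at 0 in all libraries.

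The nuclear subunits of complexes II to V gave the nearest comparison. Of 39 genes, 35 were measured, with 11 higher and 24 lower with phthalate, and a median of -0.081. The medians were 0.085 for complex II, -0.21 for complex III, -0.10 for complex IV and -0.077 for complex V. Their summed level was 7666, 7451 and 7217 CPM with water and 6350, 6823 and 7231 with phthalate, so the third phthalate library lay inside the water range. The log2 ratio of their summed shares was -0.13 (-0.18 to -0.075), against -0.0014 (-0.073 to 0.070) for complex I. The difference between them was not tested.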

How the data were processed

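The authors deposited whole-number gene counts for 6 libraries, 25239 genes and 92 ERCC spike-ins. Per the submitters' processing notes, cutadapt, Trimmomatic, HISAT2 and DESeq2 were named, with the build mm10. The counting tool, annotation, use of strand and handling of molecular identifiers are not given in the sources used here. Some, but not all, overlapping and near-identical genes are therefore named beside a member. Others include Gm15920 for Ndufa12, with 26.2% of windows shared, and Gm49356 for Ndufb9, with 23.4%. Rbm10 overlaps Ndufb11, and Tmco6 overlaps Ndufa2. Among counts of 1 to 20, from 68.0% to 71.1% were even.

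ERCC counts (292 to 753 per library) stayed out of totals. CPM used plain totals. Ratios used group sums scaled by TMM (edgeR 4.0.16, R 4.3.3). Their exact Clopper-Pearson intervals of 2 counts given their sum were computed in SciPy 1.17.1 and checked on simulated data. The simulated counts were independent and scaled by plain totals. That check could not cover counts that hold both mates of a pair. A sum of 0 was set to 3 counts, and no ratio was formed when neither sum exceeded 3. Intervals and limits cover counting error only. PCR copies are not independent molecules. DESeq2 1.42.0 size factors served as an alternative.

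Named members were the core subunits, the 3 largest ratios in each direction, the highest and lowest 3 levels, members not overlapping on CPM, members at 0, and Ndufa4. Named others were Ndufab1 and the 2 assembly factors largest in each direction. Ndufa13, Ndufc2, Ndufb6, Ndufb7, Ndufs4, Ndufb8, Ndufc1, Ndufa3, Ndufa11 and the copies were added after their values were seen. The values of 1 member are not reported here. The members and lists were chosen with earlier results of these data known. Transcript lengths came from GENCODE M21, and coordinates and promoters from RefSeq, matched by symbol.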

Additional observations from a re-analysis of the deposited data

How the results depend on the processing

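No paired analysis was possible because libraries of the 2 groups share only replicate numbers, with no animal, culture or day named, and no result comes from a test. Of 237 alternatives to the values behind the comparisons, 213 were labelled unchanged and 24 moved. That label allowed a change of sign. The complex I median changed sign in 7 of 16 alternatives and the complex I share ratio in 6 of 12. Scaling to totals, to DESeq2 factors or to totals without Rn45s shifts all gene ratios by 1 constant, so those alternatives could show little. Members not overlapping numbered 1 on CPM, 3 on DESeq2 size factors and 3 on TMM-scaled CPM, beside 10.0%, 10.1% and 10.1% of all genes. The TMM-scaled count was added after seeing the data. So were the transcript of any type, the window filter, and the distal sum without Ndufb7 or over the proximal arm. The other filters, means and Rn45s totals for arms, assembly factors and complexes II to V were also added then. With single libraries left out, 3 to 6 members did not overlap, where fewer libraries overlap less. The share of all genes for those cases is not given here, so that rise is not a result about the members. Members past 1.5-fold numbered 3, then 0 at a mean count of at least 20 and 6 with no filter, and 3 to 6 with single libraries left out. The shares of all genes in these alternatives are not given here either. The complex III median was -0.056 with filterByExpr, -0.36 with no filter and -0.28 to -0.10 with single libraries left out. With single libraries left out, medians ran from -0.050 to 0.13 (complex II), -0.26 to -0.025 (complex IV), -0.15 to 0.088 (complex V), -0.15 to 0.036 (complexes II to V) and -0.19 to 0.31 (assembly factors). The complex I share ratio was 0.13 per ERCC count. The fold from lowest to highest level was 9.50 on median transcript length and 9.31 with no length scaling. Ndufs1 turned to 0.50 without water library 3 and was -3.20 without phthalate library 3. The cause of these moves was not tested. Single-gene ratios spread widely at low counts: at mean counts of 10 to 20, the 5th to 95th percentiles of all genes ran from -0.86 to 0.82.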
